A study of Mus musculus with 6 samples.

Results

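The genes described here handle iron and heme: the ferritin chains Fth1 and Ftl1, the transferrin receptor Tfrc, the iron transporters Slc11a2 and Slc40a1, the heme-degrading enzymes Hmox1, Blvra and Blvrb, and the iron regulatory proteins Aco1 and Ireb2. They were chosen by name, 10 of the 30077 genes in the deposited table, and all 10 were found. The cells were bEnd.3, an endothelial line of mouse brain labelled wild type, and their messenger RNA was read in 2 groups of 3 libraries. In the mitochondria group the cells were kept for 24 h with mitochondria that had been prepared from MLO-Y4, an osteocyte-like mouse line, and suspended in 100 µl of culture medium. The control group was given medium in equal volume without mitochondria, and all 6 libraries come from the same cell line kept in high-glucose medium with serum. The series asks how mitochondria from osteocytes alter transcription in endothelial cells. Whether replicate libraries are separate cultures is not given in the labels: the p-values rest on the spread among these libraries, which may be technical.

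Cells take up iron as transferrin bound to the transferrin receptor, store it inside ferritin shells built of heavy (Fth1) and light (Ftl1) chains, and export it through ferroportin (Slc40a1). Heme oxygenase 1 opens the heme ring and releases iron, carbon monoxide and biliverdin, which the biliverdin reductases turn into bilirubin. The iron regulatory proteins bind short hairpins called iron-responsive elements when iron is scarce: a hairpin ahead of the coding sequence, as in the ferritins, then blocks translation, whereas hairpins behind the coding sequence of Tfrc shield its messenger RNA from decay. Ferritin and Hmox1 transcription is also driven through antioxidant response elements, which NRF2 activates and BACH1 represses.

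The hairpins are shown because they divide the genes by where the iron regulatory proteins can bind. Transcripts of GENCODE release M21 (GRCm38) were searched on the sense strand for CNNNNNCAGTGN followed by 5 more bases, with the 5 bases on either side of the loop paired, the last loop base other than G, and at least 4 of the 5 pairs of the stem below it formed. A window of 30 bases is given for 1 hairpin of each gene, 5′ to 3′, with the 6 bases of the loop in capitals.
Ftl1, 5′ UTR, chr7:45459779-45459808, minus strand: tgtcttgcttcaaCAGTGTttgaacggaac
Fth1, 5′ UTR, chr19:9982731-9982760, plus strand: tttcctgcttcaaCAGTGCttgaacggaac
Slc40a1, 5′ UTR, chr1:45925465-45925494, minus strand: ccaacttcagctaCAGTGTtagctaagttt
Tfrc, 3′ UTR, chr16:32631218-32631247, plus strand: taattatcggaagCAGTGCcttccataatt
Tfrc held 4 such hairpins, all in its 3′ UTR, and each of the other 3 genes held 1, in the 5′ UTR. No match was found in the transcripts of Slc11a2, Hmox1, Blvra, Blvrb, Aco1 or Ireb2, which says only that these letters and pairs were not there. The structure is rare: it was found in the 5′ UTR of 8 of 21200 genes (0.0377%) and in the 3′ UTR of 20 of 21849 genes (0.0915%).

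**Figure D1:**
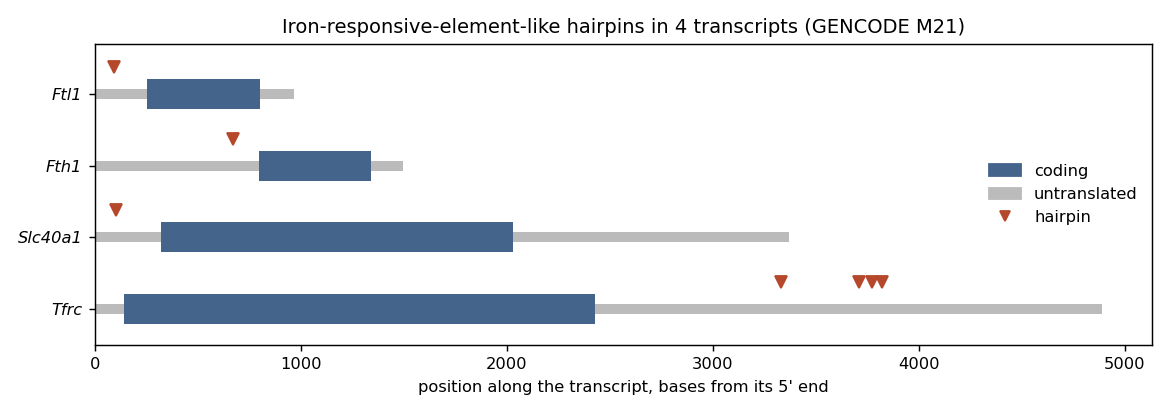
Position of the hairpins along the longest coding transcript with a hairpin, for each of 4 genes (x axis, bases from the 5′ end; blue, coding; grey, untranslated; triangles, hairpins). The single hairpins of Ftl1, Fth1 and Slc40a1 lie ahead of the coding sequence and the 4 hairpins of Tfrc lie behind it.

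The libraries held 59651087 to 63581460 counts in the mitochondria group and 64609635 to 65576084 in the control group. The endothelial label was borne out by expression: 9 of 10 endothelial markers were high enough to be tested, and Vwf was not. The 10 markers summed to 6615 to 6801 CPM in mitochondria libraries and 6444 to 6627 CPM in control libraries. CPM are counts per unit of TMM-corrected depth. Between the groups, none of the 9 passed. Ribosomal reads, assigned to CT010467 and Lars2, were 4.38% to 7.94% of mitochondria libraries and 1.74% to 3.56% of control libraries. Mitochondria 2 stood apart: it held 6596 counts over 12 hepatocyte markers, a list chosen after seeing the data, and the other 5 libraries held 116 to 305. It was also the only library with counts of Hamp (77), the iron hormone hepcidin, and it held 571 counts of Trf, which encodes transferrin, against 0 to 18 in the others. Values without it are given beside the calls. In such bulk RNA, a smaller share of expressing cells and less RNA per cell cannot be told apart.

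Cells given mitochondria had more ferritin messenger RNA of both chains and less transferrin receptor and heme oxygenase 1 messenger RNA. The differences were 11.9% to 25.9% of the control level. Of the 10 genes, 9 passed the filter on low values (at least 1 FPKM, fragments scaled by transcript length and depth, in at least 3 libraries). By edgeR's quasi-likelihood test, 2 of these 9 rose (Fth1, Ftl1), 2 fell (Hmox1, Tfrc) and 5 did not pass at an adjusted p of 0.05. Over all 11255 tested genes 2.09% passed, 0.986% higher and 1.10% lower. Of the 957 tested genes averaging 200 CPM or more, where all 4 of these genes lie, 9.40% passed, 3.66% higher and 5.75% lower. None of the 4 passed with limma on log2(FPKM + 1) (adjusted p = 0.0731 to 0.0822), in edgeR without the filter (0.057 to 0.183), or in edgeR with the ribosomal share as a covariate (0.207 to 0.773), though each kept its direction. All 4 passed with DESeq2 (adjusted p = 2.3e-20 to 0.000337). The median log2 fold change was 0.05 over the 9 genes and 0.0011 over all tested genes.

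**Figure D2:**
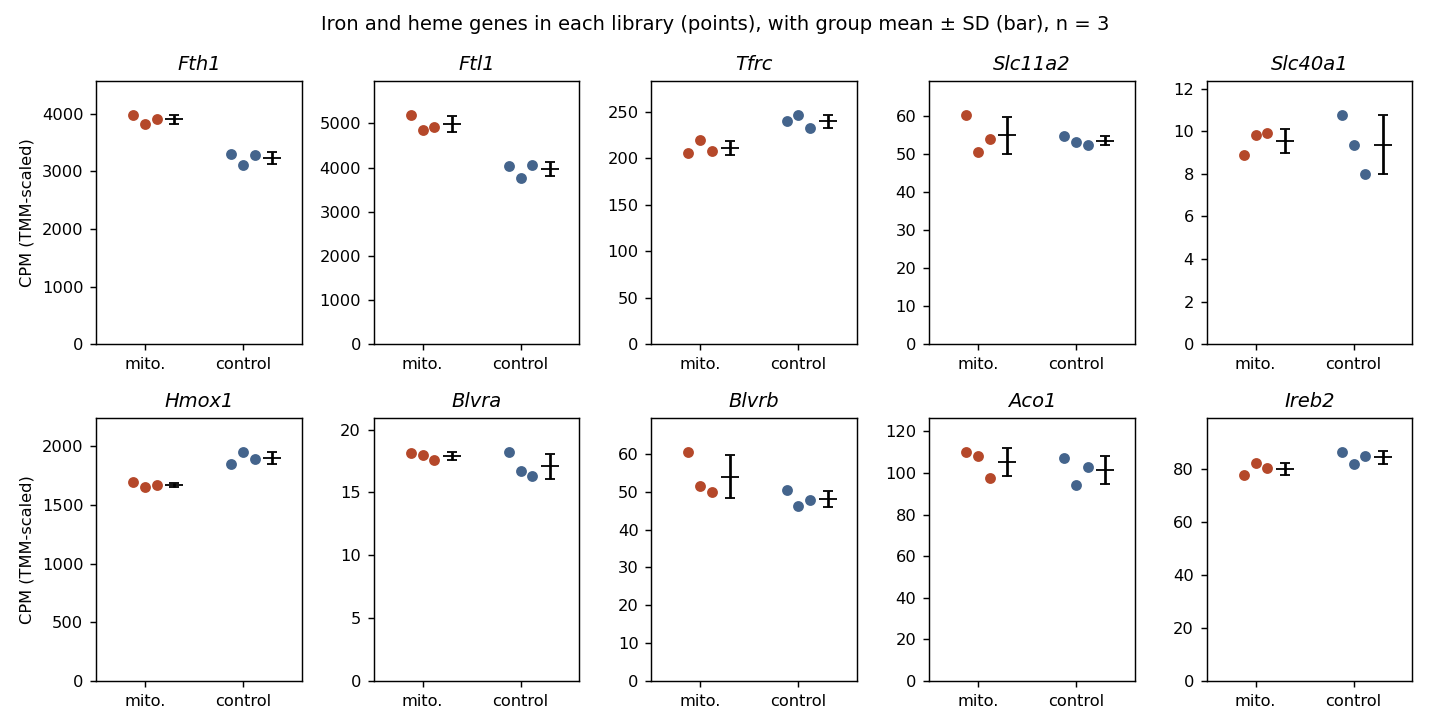
Levels of the 10 genes in CPM (y axis, from 0) in the mitochondria (red) and control (blue) libraries; points are libraries and bars the mean ± SD, n = 3. The groups are apart for Fth1, Ftl1, Tfrc and Hmox1 and overlap for the other 6 genes.

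Ftl1 (ENSMUSG00000050708, GRCm38 chromosome 7: 45457944 to 45459884) encodes the light chain, which helps to form the iron core. It stood at 5184, 4845 and 4930 CPM in mitochondria libraries, against 4034, 3776 and 4068 CPM in control libraries. Every mitochondria library lay above every control library. The mean was 4986 ± 176 CPM with mitochondria and 3959 ± 160 CPM in controls (SD, n = 3 each), a rise of 25.9% (95% interval 19.7% to 32.5%; log2 fold change 0.33, SE 0.03; edgeR, adjusted p = 0.000499). Fth1 (ENSMUSG00000024661, chromosome 19: 9980598 to 9985092) encodes the heavy chain, which oxidises iron for storage. It stood at 3975, 3826 and 3917 CPM in mitochondria libraries, against 3296, 3111 and 3290 CPM in control libraries, again without overlap. Its rise was 20.8% (interval 15.8% to 26.2%; log2 fold change 0.27, SE 0.03; edgeR, adjusted p = 0.000558). Both calls held with each library left out in turn, with adjusted p-values of 0.000909 to 0.00509 for Ftl1 and 0.00127 to 0.00912 for Fth1 in edgeR. Without mitochondria 2 the log2 fold changes were 0.35 for Ftl1 and 0.29 for Fth1. Both calls ended with limma on TPM, where Ftl1 was at 0.17 (adjusted p = 0.119) and Fth1 at 0.11 (adjusted p = 0.207) and the median of all genes was −0.15. Groups that did not overlap were seen for 21.1% of all tested genes (10.1% higher, 11% lower) and for 36.7% of those averaging 200 CPM or more (13.9% higher, 22.8% lower).

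Ferritin messages were among the most abundant in these cells. Together the 2 chains took 0.911%, 0.833% and 0.862% of all counts in mitochondria libraries, against 0.733%, 0.706% and 0.738% in control libraries. By mean FPKM, Ftl1 ranked 4 and Fth1 ranked 13 of the 30077 genes, ranks that depend on the length scaling.

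Reads of Ftl1 could be shared with its copies. A search of the annotation for transcripts at least 90% identical over at least 200 bases found 9 other genes for Ftl1, of which 8 were in the table and had counts. Their reads were 3.82% to 4.24% of those of Ftl1 and the copies together. The most abundant, Ftl1-ps1, was 99.6% identical over 910 bases and rose by 0.28 on the log2 scale (SE 0.04, adjusted p = 0.00587 in edgeR; 0.30 and 0.00858 without mitochondria 2). Ftl2-ps was at 0.29 (SE 0.08) and did not pass (edgeR, adjusted p = 0.0779). Ftl1-ps2, with 6 to 21 counts in mitochondria libraries and 10 to 23 in control libraries, was below the filter, as was Fth-ps2 with 0 to 4 and 0 to 10 counts. Other copies were uneven. Gm47428, 99.4% identical over 345 bases and below the filter, held 453 counts in mitochondria 2 and 2 to 28 in the others. Gm10252, 100% identical over 356 bases, held 274 to 352 counts in mitochondria libraries and 88 to 556 in control libraries. How the authors divided shared reads is not given, so the copies' values are uncertain. For Fth1 1 such gene was found, which was not in the deposited table, and for the other 8 genes none.

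Tfrc (ENSMUSG00000022797, chromosome 16: 32608920 to 32632794), the receptor that brings transferrin iron into the cell, stood at 206, 220 and 208 CPM in mitochondria libraries, against 241, 246 and 233 CPM in control libraries. No mitochondria library reached the lowest control. Tfrc fell by 12% (log2 fold change −0.18, SE 0.04, 95% interval −0.27 to −0.10, adjusted p = 0.0367 in edgeR). The call was held by 1 of the 6 fits with a library left out, that without mitochondria 2 (log2 fold change −0.22, adjusted p = 0.0234 in edgeR). In the other 5 the log2 fold change was −0.21 to −0.17 and the adjusted p 0.0862 to 0.148 in edgeR. Slc11a2 (ENSMUSG00000023030, chromosome 15: 100387898 to 100424092), the divalent metal transporter that carries iron out of endosomes, stood at 60.2, 50.7 and 54.0 CPM in mitochondria libraries, against 54.9, 53.3 and 52.5 CPM in control libraries. The groups overlapped, with the highest and the lowest value both in mitochondria libraries. Its log2 fold change was 0.04 (SE 0.06, interval −0.10 to 0.18, adjusted p = 0.823 in edgeR) and its sign turned with the scaling (−0.01 with library totals only).

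Slc40a1 (ENSMUSG00000025993, chromosome 1: 45908068 to 45926523), which encodes the iron exporter ferroportin, was too low for the test. It stood at 0.866, 0.913 and 0.944 FPKM in mitochondria libraries, against 1.06, 0.949 and 0.787 FPKM in control libraries. In CPM these were 8.89, 9.81 and 9.94 with mitochondria and 10.7, 9.37 and 7.997 in controls, from 518 to 698 counts per library. The control libraries spanned the mitochondria libraries on both scales.

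Hmox1 (ENSMUSG00000005413, chromosome 8: 75093621 to 75100589), the stress-inducible enzyme that opens the heme ring, moved opposite to the ferritins. It stood at 1693, 1658 and 1669 CPM in mitochondria libraries, against 1851, 1953 and 1892 CPM in control libraries. The mitochondria libraries lay close together, all below the lowest control. The mean was 1673 ± 17.9 CPM with mitochondria and 1898 ± 51.1 CPM in controls (SD, n = 3 each), so Hmox1 fell by 11.9% (log2 fold change −0.18, SE 0.03, interval −0.24 to −0.12; edgeR, adjusted p = 0.0071). Without mitochondria 3 the call was lost, with the log2 fold change at −0.18 and an adjusted p of 0.0539 in edgeR, the highest of the 6 fits with a library left out (0.0116 to 0.0539). Without mitochondria 2 the log2 fold change was also −0.18.

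The reductases that act after heme oxygenase did not pass. Blvra (ENSMUSG00000001999, chromosome 2: 127070665 to 127097084), the main biliverdin reductase of adult cells, stood at 18.1, 18.0 and 17.6 CPM in mitochondria libraries, against 18.2, 16.7 and 16.3 CPM in control libraries. Control 1 reached the top of the mitochondria libraries, and the log2 fold change was 0.07 (SE 0.09, interval −0.14 to 0.27, adjusted p = 0.781 in edgeR; −0.09 with TPM). Blvrb (ENSMUSG00000040466, chromosome 7: 27447978 to 27466144), a flavin and biliverdin reductase, stood at 60.5, 51.5 and 49.98 CPM in mitochondria libraries, against 50.5, 46.3 and 47.8 CPM in control libraries. Mitochondria 1 was high and mitochondria 3 lay below control 1. The log2 fold change was 0.16 (SE 0.07, interval 0.0045 to 0.32, adjusted p = 0.299 in edgeR), and 0.07 without mitochondria 1.

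The messages of the iron regulatory proteins did not pass either. Aco1 (ENSMUSG00000028405, chromosome 4: 40143081 to 40198338), which is a cytosolic aconitase when it holds an iron-sulfur cluster and binds RNA when it does not, stood at 110, 108 and 97.7 CPM in mitochondria libraries, against 107, 94.0 and 103 CPM in control libraries. The ranges overlapped almost wholly, and the log2 fold change was 0.05 (SE 0.06, interval −0.07 to 0.18, adjusted p = 0.712 in edgeR; −0.01 on FPKM, −0.10 with TPM). Ireb2 (ENSMUSG00000032293, chromosome 9: 54863789 to 54912530), whose protein is degraded when iron is plentiful, stood at 77.7, 82.3 and 80.5 CPM in mitochondria libraries, against 86.5, 82.0 and 85.0 CPM in control libraries. Control 2 fell within the mitochondria libraries, and the log2 fold change was −0.08 (SE 0.04, interval −0.17 to 0.02, adjusted p = 0.442 in edgeR).

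**Figure D3:**
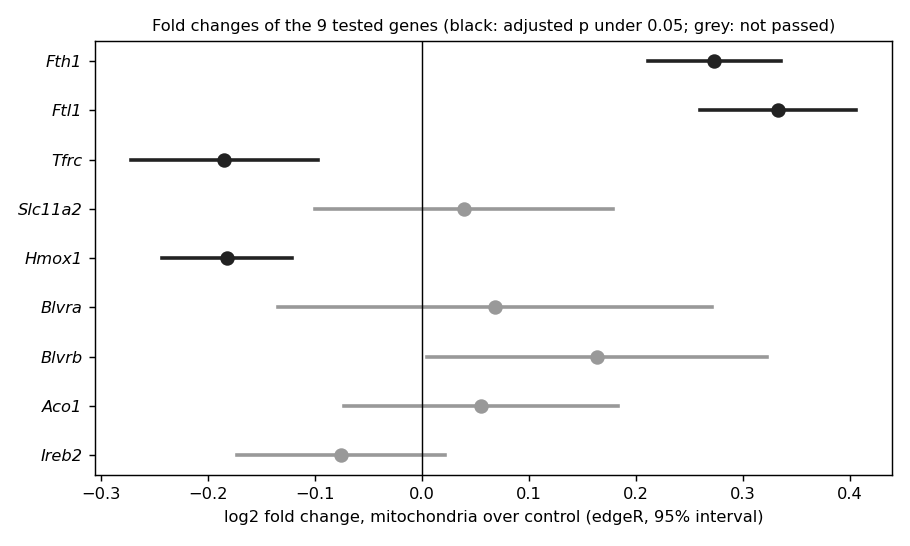
Log2 fold change of the 9 tested genes, mitochondria over control (x axis), as point and 95% interval from edgeR; black, adjusted p under 0.05, grey, not passed. Ftl1 (0.33) and Fth1 (0.27) lie above 0, Tfrc and Hmox1 (both −0.18) below 0, and the intervals of Slc11a2, Blvra, Aco1 and Ireb2 span 0.

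Ratios between genes within a library do not depend on how libraries are scaled. The summed FPKM of the ferritin chains was 151, 133 and 143 times that of Tfrc in mitochondria libraries, against 102, 93.3 and 106 times in control libraries. The log2 ratio was 7.15 ± 0.0933 with mitochondria and 6.65 ± 0.0940 in controls (SD, n = 3 each), a difference of 0.50 (two-sided exact permutation p = 0.1, the smallest that 3 against 3 libraries allow; 0.2 adjusted over 6 ratios). Ferritin to Hmox1 was 5.19, 4.98 and 5.05 in mitochondria libraries, against 3.75, 3.33 and 3.69 in control libraries, a difference of 0.50 on the log2 scale (exact permutation p = 0.1, adjusted 0.2). In both ratios the groups did not overlap, and with each library left out the difference stayed between 0.45 and 0.55. By FPKM, both ferritin chains were higher and Tfrc and Hmox1 lower in every mitochondria library. The separation of these ratios and their p-value were fixed by those values, so the ratios restate the single-gene differences and add no separate test.

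The transferrin receptor and heme oxygenase ratio did not move in this way. Tfrc to Hmox1 was 0.0344, 0.0376 and 0.0352 in mitochondria libraries, against 0.0368, 0.0357 and 0.0348 in control libraries, with a log2 difference of −0.0030 (exact permutation p = 1) whose sign turned with the library left out (−0.04 to 0.02). By FPKM, Ftl1 to Fth1 was 3.38, 3.28 and 3.26 in mitochondria libraries, against 3.17, 3.14 and 3.201 in control libraries. The groups were apart but by only 0.06 on the log2 scale (exact permutation p = 0.1, adjusted 0.2), and by the same 0.06 with CPM. The size of the ratio itself rests on the length scaling. Mean CPM of Ftl1 and Fth1 were 4986 and 3906 with mitochondria, and 3959 and 3232 in controls. The differences were 0.09 for Blvrb to Blvra (exact permutation p = 0.3) and −0.13 for Ireb2 to Aco1 (exact permutation p = 0.2), with overlapping groups.

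The order of Fth1 and Hmox1 by FPKM was not the same in the 2 groups. Fth1 was the higher in each mitochondria library, at 1008, 927 and 968 FPKM beside 851, 796 and 817 FPKM of Hmox1. In each control library Hmox1 was the higher, at 937, 1017 and 961 FPKM beside 842, 818 and 843 FPKM of Fth1. By CPM, which is not scaled by transcript length, Fth1 was the higher in all 6 libraries. It stood at 3111 to 3975 CPM beside 1658 to 1953 CPM of Hmox1, so the change of order rests on the length scaling. The log2 ratio of Fth1 to Hmox1 differed by 0.46 between mitochondria and control libraries (exact permutation p = 0.1), which the single-gene values also fixed. Ftl1 was above both in every library, at 3040 to 3403 FPKM with mitochondria and 2571 to 2700 FPKM in controls. Tfrc followed at 28.8 to 29.9 FPKM with mitochondria and 33.4 to 36.3 FPKM in controls, and Aco1 at 18.6 to 21.5 and 19.1 to 21.1 FPKM. Blvrb came next at 15.4 to 19.1 FPKM with mitochondria and 15.2 to 16.1 FPKM in controls. Slc11a2 (6.71 to 8.34 FPKM over all 6 libraries) and Ireb2 (7.21 to 8.09 FPKM) overlapped, Blvra (5.93 to 6.59 FPKM) lay just under them, and Slc40a1 was lowest. The ranges of Tfrc and Aco1 did not meet, whereas Aco1 and Blvrb overlapped.

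**Figure D4:**
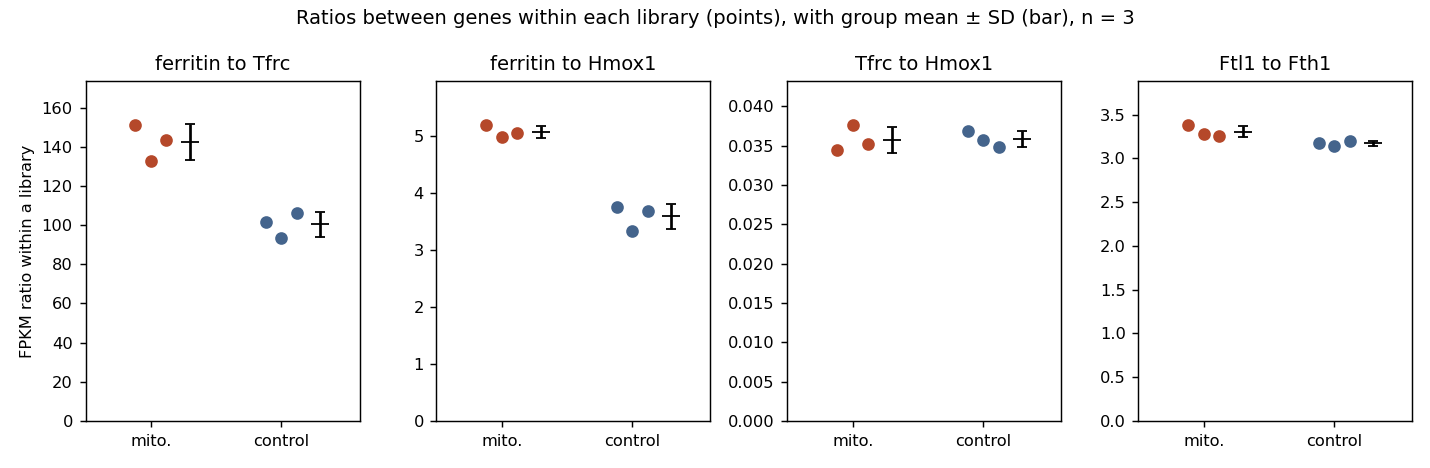
FPKM ratios within each library (y axis, from 0; points, libraries; bars, mean ± SD, n = 3) for mitochondria (red) and control (blue). Ferritin to Tfrc and ferritin to Hmox1 are higher in every mitochondria library, whereas Tfrc to Hmox1 overlaps.

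The hairpin search gave 28 genes in all, a group set by sequence alone but chosen after fold changes were known. Of these 19 were tested and 5 passed, where 2.09% of all tested genes passed. Ftl1, Fth1 and Tfrc are 3 of the 5, already described, and without them 2 of 16 passed: Ftl1-ps1, the near-identical copy of Ftl1, and Ppia. Ppia, the prolyl isomerase cyclophilin A with the structure in an annotated 5′ UTR, fell by 0.47 on the log2 scale (SE 0.10, adjusted p = 0.0414 in edgeR). That call held in 2 of the 6 fits with a library left out, was lost without mitochondria 2 (−0.40, adjusted p = 0.101 in edgeR), mitochondria 3, control 2 or control 3, and was not made by DESeq2 (adjusted p = 0.0933). The 14 that did not pass ranged from −0.29 (Wars2) to 0.11 (2010111I01Rik). Among 4 tested transcripts listed by name for an iron-responsive element in mouse or human, none passed: Epas1, a hypoxia-inducible factor, was at 0.19 (SE 0.06, adjusted p = 0.139 in edgeR), the kinase Cdc42bpa at −0.09 (SE 0.05) and the actin regulator Pfn2 at 0.06 (SE 0.07).

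Across 7 lists of other iron and heme genes, 92 in all, 90 were in the table and 70 were tested. Of these 2 rose, none fell and 68 did not pass, beside 0.986% higher and 1.10% lower over all tested genes, and the median log2 fold change was 0.02. The count passing was 6 with DESeq2, 0 with limma on FPKM, and 0 to 3 with a library left out in edgeR, the 0 being without control 3. Those 2 are in the heme transport list (8 tested, median 0.04). Slc48a1, which carries heme out of endosomes and lysosomes, stood at 340, 324 and 326 CPM in mitochondria libraries, against 289, 285 and 272 CPM in control libraries, without overlap. It rose by 0.23 on the log2 scale (SE 0.04, adjusted p = 0.00937 in edgeR), a call held without mitochondria 2 (0.24, adjusted p = 0.0157 in edgeR) and lost without control 3 (adjusted p = 0.0716 in edgeR) and with limma on log2(FPKM + 1) (adjusted p = 0.157). Abcc1, an exporter of glutathione conjugates rather than a dedicated heme carrier, rose by 0.16 (SE 0.03, adjusted p = 0.027 in edgeR), a call held with a library left out only without mitochondria 2. Hmox2, the constitutive heme oxygenase, was at 0.14 (SE 0.05, adjusted p = 0.158 in edgeR) and Flvcr1, a heme exporter, at −0.14 (SE 0.07).

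Of 11 tested heme synthesis genes none passed, and 8 were above 0 (median 0.07). Cpox, which makes protoporphyrinogen, stood nearest the threshold at −0.19 (SE 0.05; edgeR, adjusted p = 0.0545). Fech, which inserts iron into heme, was at 0.20 (SE 0.07) and the porphyrin transporter Abcb6 at 0.75 (SE 0.27, adjusted p = 0.194 in edgeR). Abcb6 was uneven within groups, at 14.5, 11.4 and 16.3 CPM in mitochondria libraries, against 4.63, 8.23 and 12.2 CPM in control libraries.

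None of 23 genes of mitochondrial iron import and iron-sulfur cluster assembly passed (median −0.03). Abcb10, a carrier of the inner mitochondrial membrane, stood nearest the threshold at 0.26 (SE 0.09; edgeR, adjusted p = 0.185), the co-chaperone Hscb was at 0.24 (SE 0.12), the cytosolic assembly factor Mms19 at −0.12 (SE 0.05) and the iron importer Slc25a28 at −0.19 (SE 0.11). None of 11 iron uptake and trafficking genes passed (median −0.02), among them Mon1a at 0.36 (SE 0.13), the zinc and iron importer Slc39a14 at −0.10 (SE 0.05), Steap1 at −0.11 (SE 0.08) and Ncoa4, the receptor that delivers ferritin to lysosomes, at −0.05 (SE 0.04). None of 6 export and iron sensing genes passed (median 0.0070): Smad5 was at −0.18 (SE 0.05), Neo1 at 0.10 (SE 0.03), Hfe at 0.25 (SE 0.16) and Fbxl5, which marks Ireb2 protein for decay, at −0.08 (SE 0.04).

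None of 7 regulators of the antioxidant response passed (median −0.02). Mafk was at −0.09 (SE 0.04), Maff at −0.12 (SE 0.07), Nfe2l1 at 0.06 (SE 0.03) and Mafg at 0.07 (SE 0.05). Nfe2l2, which encodes NRF2, was at −0.02 (SE 0.04) and Bach1 at 0.04 (SE 0.10). These are message levels, and the activity of the proteins was not measured.

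**Figure D5:**
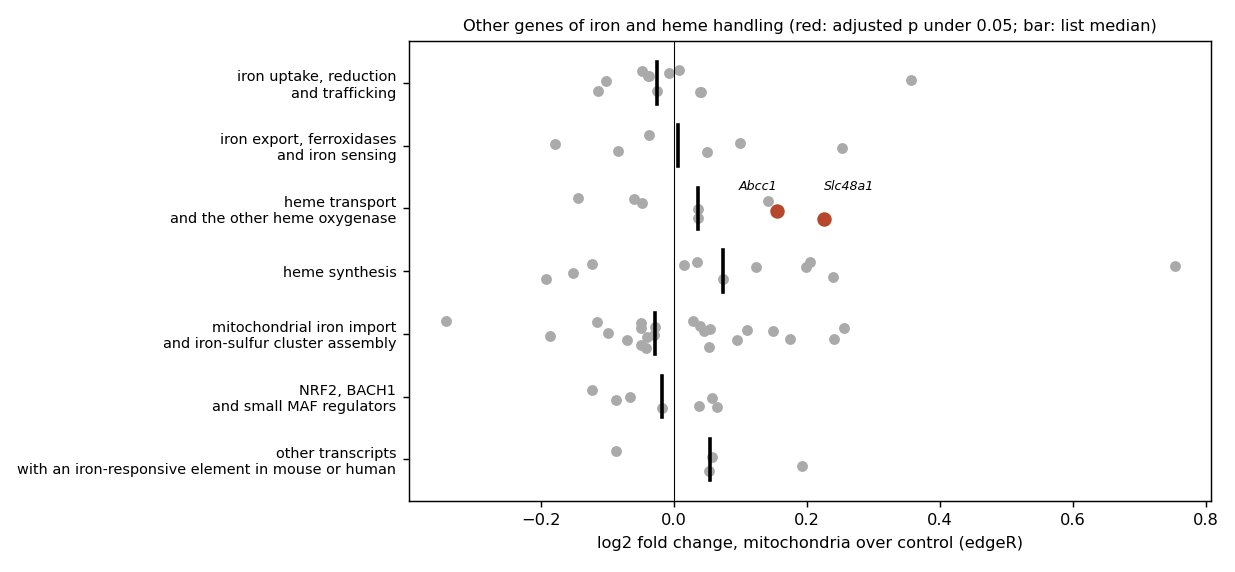
Log2 fold change, mitochondria over control (x axis), of the tested genes in 7 iron and heme lists; each point is a gene, red where the adjusted p was under 0.05, and the bar is the list median. Slc48a1 (0.23) and Abcc1 (0.16) are the 2 that passed, and Abcb6 (0.75) lies farthest right without passing.

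Genes with the most similar pattern were sought over the 4438 genes averaging 50 CPM or more, leaving out any of the 10 iron and heme genes among them, by the root-mean-square difference of log2 CPM over the 6 libraries after centring each gene on its mean. Among the closest to Hmox1 were Ptpn21 (0.0124) and Noct (0.0176), with log2 fold changes of −0.16 and −0.21. Ptpn21 did not pass (edgeR, adjusted p = 0.0691). Closest to Ftl1 were Il4ra (0.0437), Prdx1 (0.0442) and Ablim1 (0.0450), with log2 fold changes of 0.36, 0.29 and 0.28. These genes were picked by their values in the same libraries, so similar fold changes follow from the choice.

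Markers of other cells were looked up beside these results. Of 10 osteocyte markers 8 were in the table and none reached the filter; Bglap was at 0 in all libraries, and the sum was 4.51 to 6.40 CPM in mitochondria libraries and 5.465 to 8.50 CPM in control libraries. Of 8 macrophage markers 2 were tested. Cd68, a lysosomal membrane protein not confined to macrophages, rose by 0.55 on the log2 scale (SE 0.07, adjusted p = 0.00212 in edgeR). Without mitochondria 2 it rose by 0.48 (adjusted p = 0.00342 in edgeR). Cd14 was at −0.11 (SE 0.22) and did not pass. Below the filter, Ptprc, Adgre1 and Aif1 held at most 0.154 CPM in any library, and Csf1r 0.789 to 1.39 CPM. Lyz2 held 4.29 CPM in mitochondria 2 against 0.278 to 0.600 CPM in the others, and Tyrobp had counts only there (11). The summed macrophage level was 74.8 to 95.2 CPM with mitochondria and 55.1 to 60.1 CPM in controls, nearly all of it Cd68 (70.9 to 86.6 CPM with mitochondria and 50.6 to 55.0 CPM in controls). The log2 share of the ribosomal reads was also added to the model as a covariate. Every mitochondria library had a higher share than any control library, so this fit does not separate the share from the treatment. The part of the ribosomal reads in the fold changes of the iron genes was therefore not tested. With the covariate the log2 fold changes were 0.31 for Ftl1, 0.24 for Fth1, −0.19 for Tfrc and −0.12 for Hmox1, and none passed.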

How the data were processed

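RNA of 6 libraries was measured, 3 per group. Per the file headers, the authors deposited raw counts and FPKM per gene. The library kit was stranded, per the labels' protocols. GRCm38, HISAT2 2.2.1, cutadapt 1.9, StringTie 2.1.6, edgeR and DESeq2 are named, without roles, in the submitters' processing notes; how strand and multi-mapping reads were treated is not given. Counts of genes with at least 1 FPKM in at least 3 libraries (11255 of 30077) were scaled by TMM and tested with edgeR 4.0.16 (glmQLFit, glmQLFTest, R 4.3.3, two-sided, Benjamini-Hochberg over all tested genes). The SE was taken as |log2 fold change| / √F. Counts of 11255 genes were simulated from the mean levels and gene dispersions of these libraries, with the changed genes picked at random. The test found 30% of the 1.2-fold changes, 82% of the 1.5-fold, 94% of the 2-fold and 100% of the 4-fold ones. Of its calls 6.71% were false. The simulation held no difference in ribosomal share and no library with hepatocyte markers, and its rates are not those of any particular gene. Hairpins and copies were searched in GENCODE M21 transcripts, copies with blastn 2.17.0. The genes, lists and tests were chosen with earlier results of these data known. Named genes are the 10 genes, called list members and up to 4 of the lowest p per list, Ftl1 copies, and the 3 closest patterns; some genes that this rule names are not reported here. Others (Hamp, Trf, Vwf, hepatocyte markers, macrophage markers below the filter, Ppia, Wars2, 2010111I01Rik, Gm47428, Gm10252, Nfe2l2, Bach1) were named after their values were seen. Alternatives used DESeq2 1.42.0, limma 3.58.1 and the settings of the closing section.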

Additional observations from a re-analysis of the deposited data

Results flagged for a closer look

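Signals appeared in genes below the filter, in 1 library. Hamp, the hepcidin gene, held 77 counts in mitochondria 2 and 0 in each of the other 5 libraries. Over 12 hepatocyte markers mitochondria 2 held 6596 counts with all 12 present, of which Alb, the albumin gene, gave 3120 and Cyp2e1, a liver cytochrome, 687. Mitochondria 1 and 3 held 177 and 187 counts over this list, and control 1, 2 and 3 held 305, 116 and 159. In mitochondria 2 the summed level was 115 CPM, while Ftl1 stood at 4845 CPM and Tfrc at 220 CPM there. The part of this signal in the iron genes was not tested. In the edgeR fit without that library, Ftl1, Fth1, Hmox1 and Tfrc all passed.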

How the results depend on the processing

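Under 17 other settings the log2 fold changes of Ftl1 and Fth1 stayed above 0 and those of Hmox1 and Tfrc below 0, but the calls depended on the test. edgeR called 235 genes, against 598 with DESeq2, 353 with library totals only, 394 with the replicate block, 22 with no filter, 3 with the ribosomal share as a covariate, and 39, 39 and 36 with limma on log2(FPKM + 1), + 0.5 and + 0.1; with a library left out it called 68 to 233. Genes that rose were 47.2% of the calls, 17.3% with library totals only, 17.9% with limma on log2(FPKM + 1) and 6.10% with TPM, where the median of all genes was −0.15. Of the 10 genes 4 were called, 2 with TPM (Hmox1 and Tfrc), 0 with limma on FPKM at any pseudocount, with no filter or with the covariate, and 2 to 4 with a library left out. With limma on FPKM, Hmox1 was at −0.24, Fth1 at 0.21, Ftl1 at 0.27 and Tfrc at −0.24 or −0.25, with adjusted p-values of 0.0731 to 0.083. With TPM, Fth1 was at 0.11, Ftl1 at 0.17, and Hmox1 and Tfrc both at −0.34, still called. With no filter, Hmox1 was at −0.18, Fth1 at 0.28, Ftl1 at 0.34 and Tfrc at −0.18 (adjusted p = 0.057 to 0.183 in edgeR, with more genes tested). With the covariate they were at −0.12, 0.24, 0.31 and −0.19 (adjusted p = 0.207 to 0.773 in edgeR). With a library left out Hmox1 ranged from −0.20 to −0.16, Tfrc from −0.22 to −0.17, and the log2 ratio of Tfrc to Hmox1 from −0.0397 to 0.0241. Of the 70 tested pathway list genes 2 were called, 6 with DESeq2, 4 with the replicate block, 0 with limma on FPKM at any pseudocount, with no filter or with the covariate, and 0 to 3 with a library left out. Signs turned for genes not called: Slc11a2 was at −0.0223, −0.024 and −0.0255 with limma on FPKM, −0.0072 with library totals only and −0.12 with TPM, and between −0.0317 and 0.0942 with a library left out. Aco1 was at −0.0057, −0.0058 and −0.006 with limma on FPKM, −0.10 with TPM and −0.0324 with the covariate, and Blvra at −0.0853 with TPM. Abcc1, called in edgeR, was at −0.0033 with TPM. Ppia, whose alternatives were chosen after seeing the data, kept its direction in all 17. The cause of these differences was not tested.

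The replicate numbers were not taken as pairs: same-numbered libraries had correlated deviations of 0.15, 0.18 and 0.03 over 4438 genes, each the highest for its number, as a hint from the data and not the design. With the replicate block the same 4 genes were called (adjusted p-values from edgeR), and the ratios had sign-flip permutation p-values of at least 0.25, the smallest that 3 pairs allow.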
